A study of Homo sapiens with 15 samples.

Results

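The comparison described here set HEK293T cells transfected with DcpS siRNA against HEK293T cells transfected with GAPDH siRNA, with 3 arrays in each group. These 6 arrays were chosen by their sample titles out of the 15 arrays of the series. HEK293T is an established line derived from human embryonic kidney and carries the SV40 large T antigen. Both groups received siRNA against a human gene and the same transfection, and 48 hours later both were exposed for 4 hours to actinomycin D (1 ug per mL). Actinomycin D blocks transcription, so each level reflects both the amount of a transcript before the drug and its loss during it. The series design named DcpS and GAPDH as comparisons unrelated to the peptide under study, and a non-silencing siRNA, also with 3 arrays, was its reference. The question of this comparison is how a targeting siRNA against DcpS differs from another targeting siRNA, rather than from a sequence without a human target, and the non-silencing mean is given beside the genes. Total RNA was measured on whole-transcript arrays, and levels are in log2 units, so that a difference of 1 is a doubling. The labels do not say whether the 3 samples of a group were separate cultures, and a p-value here therefore speaks only of the spread among the samples at hand, which may be technical.

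DcpS is the scavenger decapping enzyme. It hydrolyses the cap that is left on a short RNA remnant after an mRNA has been degraded from its tail by the exosome, whereas Dcp2 removes the cap from long mRNAs in the opposite decay pathway. GAPDH is the glycolytic enzyme that oxidises glyceraldehyde phosphate, and its siRNA is widely used as a control for knockdown. In dividing cells such as HEK293T the transcripts for DNA synthesis peak around S phase and those for mitosis peak in G2 and M phase, so their levels depend on how the cells are spread over the cycle. In a bulk sample, a change in the number of cells in a phase and a change of RNA per cell cannot be told apart.

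The array medians over all probe sets of the 15 arrays lay between 4.01 and 4.08 log2 units. Per the submitters' processing notes the values came from RMA, which normally scales arrays to a common distribution, so a shift of all transcripts together may not be visible. A DcpS and a GAPDH array correlated at 0.982 to 0.987, against 0.983 to 0.991 for arrays of 1 group. Of 9 measured markers of the HEK293 line, 8 had mean levels above 5 in both groups, and PAX8 was at 4.02 with DcpS and 3.80 with GAPDH siRNA, near the array median, as with non-silencing siRNA at 3.87. The measured genes of the endothelial and epithelial lists all had means under 5. The keratins KRT8 and KRT18, counted here with the line, were at 6.12 and 8.72 with DcpS, 6.21 and 8.77 with GAPDH and 5.88 and 8.69 with non-silencing siRNA. Of 3 fibroblast markers only THY1 was above 5, at 5.12 with DcpS, 5.29 with GAPDH and 5.18 with non-silencing siRNA. Of 4 measured blood cell markers 2 had means above 5, CD68 and SPI1. Arrays also varied within groups along a shared axis, the first principal component of the deviations from group means, which held 24.7% of that variation. Non-silencing replicate 1 scored -20.2 on it, DcpS replicate 1 -16.7 and GAPDH replicate 2 -11.5, while the group means of DcpS and GAPDH siRNA were -2.76 and -0.24. 

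The targeted transcript GAPDH was at 7.14, 7.02 and 7.24 in the DcpS arrays, at 6.10, 6.11 and 5.69 in the GAPDH arrays and at 7.12, 7.17 and 7.30 in the non-silencing arrays. All GAPDH siRNA arrays were lower than every array of both other groups. The mean was 7.13 ± 0.11 with DcpS siRNA and 5.97 ± 0.24 with GAPDH siRNA (SD, n = 3 each), a difference of 1.16 log2 units or 2.24-fold (SE 0.11, limma adjusted p = 2.26e-05). The DcpS mean lay -0.066 from the non-silencing mean of 7.20 (limma adjusted p = 0.862). No probe set was named DCPS, and the knockdown by DcpS siRNA is therefore not analysed here; the group is called by the siRNA it received.

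Relative to GAPDH siRNA, 523 of 14884 genes rose and 367 fell in the DcpS siRNA arrays (limma, adjusted p under 0.05), which is 5.98% of genes called, 3.51% higher and 2.47% lower. The sizes of called differences were moderate, with medians of 0.53 among higher and -0.50 among lower genes, and 28 higher and 13 lower genes differed by more than 1 log2 unit. Most called genes had a non-silencing mean between those of the DcpS and GAPDH groups, 419 of 523 higher and 263 of 367 lower genes. Over all genes it was 5449 of 14884. A wide gap between the DcpS and GAPDH means leaves more room for the non-silencing mean to fall inside it. The counts among called genes therefore follow in part from how these genes were selected. Among the 523 higher genes, 128 were also called with DcpS siRNA but not with GAPDH siRNA against non-silencing, 106 with GAPDH siRNA but not with DcpS siRNA, 11 with both and 278 with neither. Among the 367 lower genes the counts were 156, 32, 2 and 177. Against non-silencing, 1.76% of all genes were called higher and 1.85% lower with DcpS siRNA, and 0.726% higher and 1.27% lower with GAPDH siRNA. Those comparisons share the non-silencing arrays with each other and 3 arrays each with the present one. The count of 890 genes was 573 without GAPDH replicate 1, 633 without DcpS replicate 1, 715 without GAPDH replicate 2, 934 without non-silencing replicate 1 and 394 when only the 6 compared arrays were fitted.

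**Figure D1:**
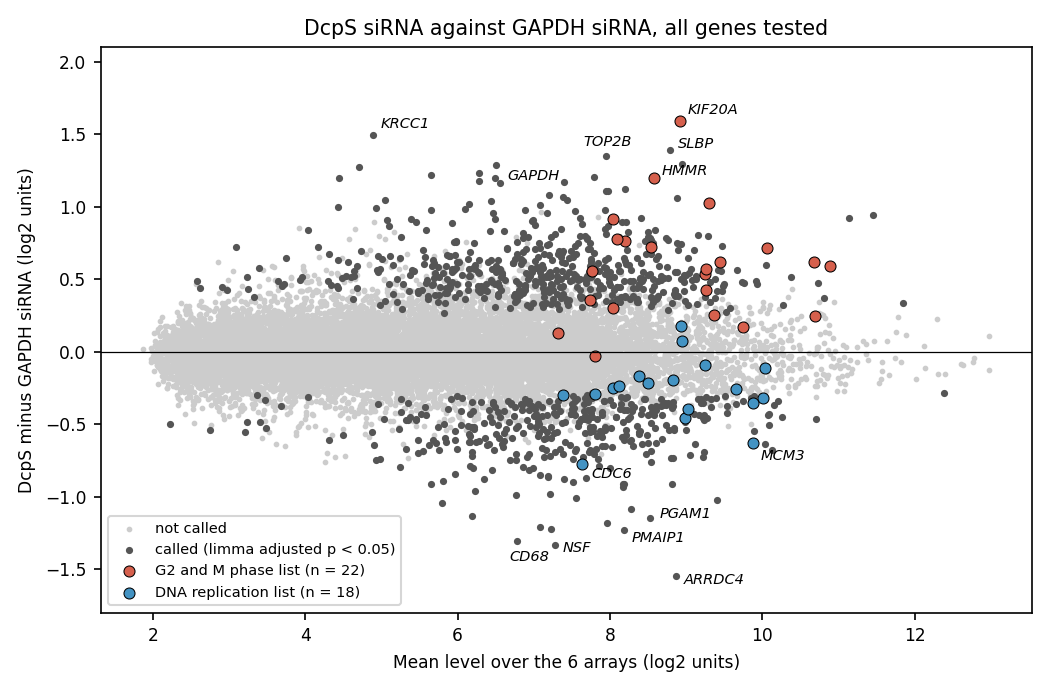
Each point is 1 of 14884 genes, with its mean level over the 6 arrays on the x axis and the DcpS minus GAPDH difference on the y axis, both in log2 units. Genes of the G2 and M phase list lie above zero with 1 exception, and most genes of the DNA replication list lie below zero.

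The largest difference in favour of DcpS siRNA was that of KIF20A, a kinesin needed for cytokinesis. Its levels were 9.72, 9.68 and 9.75 with DcpS siRNA, 8.31, 7.76 and 8.31 with GAPDH siRNA and 8.48, 8.92 and 9.18 with non-silencing siRNA. The DcpS arrays stood above all others and the GAPDH arrays below all others, giving a difference of 1.59 (SE 0.16, limma adjusted p = 3.06e-05). SLBP, which binds the stem-loop at the end of histone mRNAs and is needed for their processing, was at 9.47, 9.48 and 9.52 with DcpS, 8.15, 8.01 and 8.14 with GAPDH and 9.10, 8.97 and 9.16 with non-silencing siRNA. For SLBP the distance to the non-silencing mean was 0.41 on the DcpS side and -0.98 on the GAPDH side, and both passed the test. LRIF1, which encodes a nuclear protein of heterochromatin, also lay on opposite sides of non-silencing, at 0.69 and -0.59 from a mean of 6.46, with a difference of 1.29 (SE 0.13, limma adjusted p = 2.24e-05). LRIF1 had a second, dim probe set with a mean of 2.98, and averaging the pair gave a difference of 0.82, still called.

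For a further set of the largest differences, the DcpS arrays lay near non-silencing and the GAPDH arrays were low. TOP2B, a topoisomerase that relaxes DNA during transcription, was at 8.71, 8.54 and 8.64 with DcpS siRNA and 7.30, 7.26 and 7.26 with GAPDH siRNA against a non-silencing mean of 8.53 (difference 1.35, SE 0.096, limma adjusted p = 2.11e-06). DNPH1, a nucleotide hydrolase, was at 9.76, 9.45 and 9.58 and 8.39, 8.41 and 8.11, with a non-silencing mean of 9.60 (difference 1.29). The carbonic anhydrase gene CA2 (difference 1.20), the potassium channel domain gene KCTD2 (1.20) and MARVELD2, a protein of tricellular tight junctions (1.22), also had a non-silencing mean nearer DcpS than GAPDH siRNA, with non-silencing means of 6.91, 8.05 and 5.80 against GAPDH siRNA means of 5.90, 7.20 and 5.04. FNDC10 had the same order of means but scattered arrays, at 7.41, 6.53 and 6.73 with DcpS and 5.51, 6.33 and 5.13 with GAPDH siRNA (non-silencing mean 6.88, limma adjusted p = 0.0336).

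In contrast, TMEM31 was high in the DcpS arrays alone, at 5.21, 5.62 and 5.21, against 4.05, 4.00 and 4.17 with GAPDH siRNA and a non-silencing mean of 4.05, close to the array median (difference 1.27, SE 0.14, limma adjusted p = 4.48e-05). EFNA3, an ephrin ligand, was 0.98 higher and NPPC, the C-type natriuretic peptide, 0.97 higher with DcpS siRNA, with means of 7.44 and 7.05 for GAPDH siRNA and 7.44 and 7.03 for non-silencing siRNA. Their means were 7.77 and 7.75 with Dcp2 siRNA and 7.89 and 6.86 with LOC550643 siRNA, so neither rise was seen with DcpS siRNA alone. Besides these, KRCC1 (1.50), CABCOCO1 (1.20) and SHISA3 (1.18) were higher, with non-silencing means of 4.76, 4.20 and 6.19 between the groups. Arrays were also left out 1 at a time. KRCC1 missed the threshold without DcpS replicate 1, GAPDH replicate 1 or 3 (limma adjusted p 0.0625 to 0.0754). FNDC10 missed the threshold without DcpS replicate 1 or 3, GAPDH replicate 1 or 3, or with only the 6 arrays (limma adjusted p 0.0591 to 0.147).

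**Figure D2:**
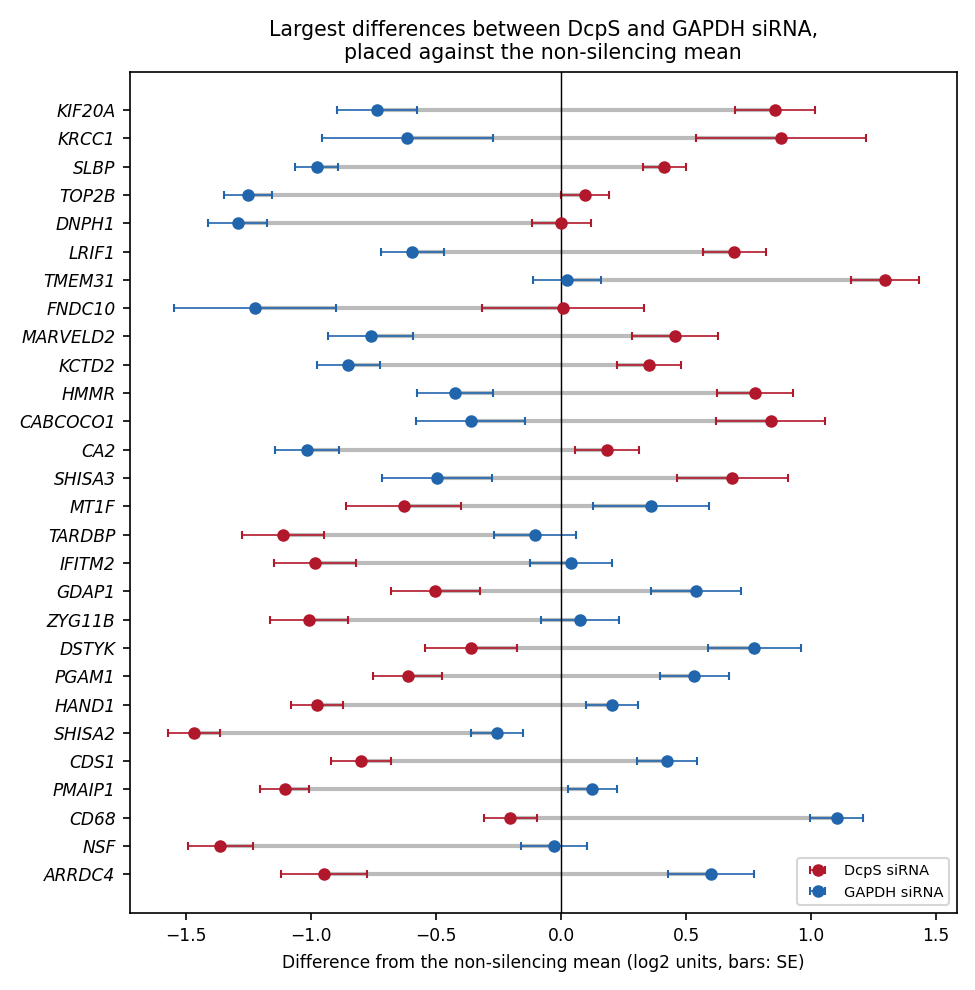
The 14 largest called differences in each direction are shown as the distance of the DcpS mean and of the GAPDH mean from the non-silencing mean (zero line), in log2 units, with bars for the SE. TOP2B, DNPH1 and CA2 have DcpS points near zero and GAPDH points near or below -1, whereas NSF, TARDBP and IFITM2 have GAPDH points near zero and DcpS points near or below -1.

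Genes of G2 and M phase were the group with the most calls. Of 22 measured genes on this list 14 were higher and 0 lower with DcpS siRNA, 21 of 22 had positive differences, and the median was 0.58, where the median over all genes was -0.00157 and 3.51% of genes were called higher. The DcpS and GAPDH arrays did not overlap for 20 of the 22, where 10.8% of all genes had separate arrays in that direction. HMMR, a spindle-associated hyaluronan receptor, was at 9.48, 8.89 and 9.16 with DcpS, 8.04, 8.12 and 7.76 with GAPDH and 8.65, 8.28 and 8.27 with non-silencing siRNA (difference 1.20, SE 0.15, limma adjusted p = 0.000197). Its lowest DcpS array lay above its highest non-silencing array, and its highest GAPDH array lay below the lowest non-silencing one. KIF23, a kinesin of the central spindle, had a difference of 1.03 (SE 0.16, limma adjusted p = 0.00106), with a non-silencing mean of 9.17 between 9.81 and 8.78.

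CENPA, the histone H3 variant that marks centromeres, was at 8.41, 8.54 and 8.53 with DcpS siRNA, 7.49, 7.43 and 7.81 with GAPDH siRNA and 7.42, 7.79 and 7.89 with non-silencing siRNA. With Dcp2 siRNA CENPA was at 8.25, 8.43 and 8.48, overlapping the DcpS arrays. The DcpS arrays of CENPA stood apart from the GAPDH and non-silencing arrays, which overlapped each other. The mitotic cyclin CCNB1 showed the same layout, at 8.97, 8.81 and 8.95, 8.15, 7.98 and 8.42 and 8.31, 8.24 and 8.37 (difference 0.73, SE 0.12, limma adjusted p = 0.0012). The cyclins CCNA2 (0.72), CCNF (0.77) and CCNB2 (0.56), the kinases NEK2 (0.78), BUB1 (0.62), PLK1 (0.62) and TTK (0.54), the topoisomerase TOP2A (0.59) and the proliferation antigen MKI67 (0.57) made up the rest of those higher. Their non-silencing means were 9.65, 7.96, 7.55, 7.81, 9.22, 10.50, 9.02, 10.73 and 9.51, against GAPDH siRNA means of 9.71, 7.82, 7.48, 7.71, 9.14, 10.37, 8.98, 10.60 and 8.98. MKI67 was the exception among them, since its non-silencing mean lay closer to its DcpS mean of 9.55 than to its GAPDH mean. The 8 members that did not pass included CDK1, the kinase that drives entry into mitosis, at 0.43 (95% interval 0.12 to 0.73, not adjusted for the number of genes, as for all intervals given), AURKA at 0.36 and CDC25B at -0.031, with non-silencing means of 8.98, 7.69 and 7.95.

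Set against non-silencing, the list had a median of 0.49 with DcpS siRNA, with 13 of 22 genes called higher, and of -0.12 with GAPDH siRNA, with 1 called lower, KIF20A. Within groups the members also followed the shared axis of the arrays (median correlation 0.65 over the deviations of 15 arrays, as a description). With the within-group deviation on this axis as a covariate 18 of 22 were called higher. That covariate has the same mean in every group, so it leaves the differences unchanged and lowers the spread. It does not adjust the difference between groups for the axis. Between 12 and 14 stayed called when any 1 of the DcpS, GAPDH or non-silencing arrays was left out, 14 without DcpS replicate 1 and 14 without non-silencing replicate 1. MKI67 missed the threshold without DcpS replicate 2 or 3, GAPDH replicate 1 or 2, non-silencing replicate 3, or with only the 6 arrays (limma adjusted p 0.0509 to 0.176). TTK missed the threshold without DcpS replicate 2 or 3, GAPDH replicate 2 or 3, or with only the 6 arrays (limma adjusted p 0.0555 to 0.133).

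**Figure D3:**
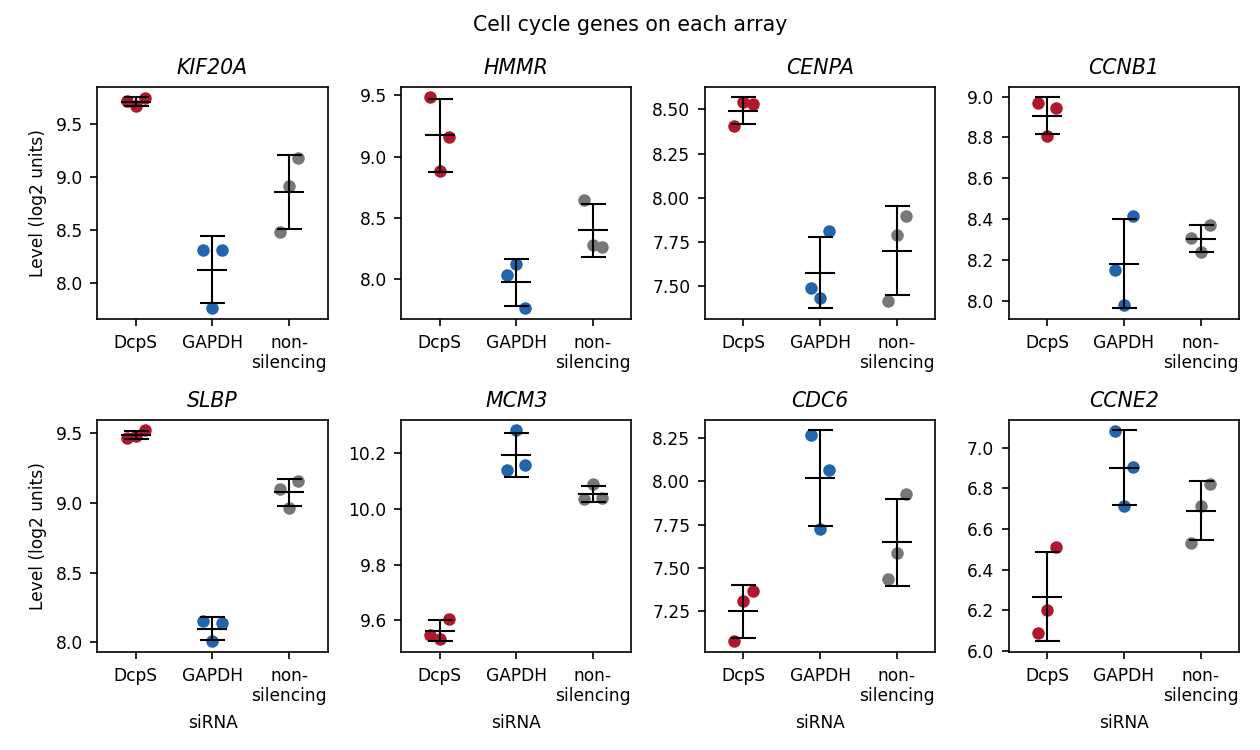
Levels in log2 units on each array for 8 cell cycle genes with DcpS, GAPDH and non-silencing siRNA (3 arrays each, points), with the mean and SD as black bars. In every panel the DcpS points do not overlap the GAPDH points, and for KIF20A and SLBP the non-silencing points lie between both groups.

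Many mitotic genes share a promoter element called the cell cycle genes homology region (CHR), bound by the repressor and activator complexes that time them, together with upstream CCAAT boxes bound by NF-Y. The promoters of 7 of the genes called higher are shown because these genes moved together, with the 120 bases before the annotated start of the gene in RefSeq (GRCh38.p14), written along the strand of the gene. Capitals mark the CHR letters TTTGAA or TTCGAA and the CCAAT box on either strand, so that ATTGG is a CCAAT box on the other strand and TTCAAA would be a CHR there. They are PLK1 (chr16:23678769-23678888, plus strand), CCNB2 (chr15:59105026-59105145, plus), KIF23 (chr15:69414229-69414348, plus), HMMR (chr5:163460512-163460631, plus), MKI67 (chr10:128126424-128126543, minus), CCNB1 (chr5:69167030-69167149, plus) and KIF20A (chr5:138178992-138179111, plus).
PLK1: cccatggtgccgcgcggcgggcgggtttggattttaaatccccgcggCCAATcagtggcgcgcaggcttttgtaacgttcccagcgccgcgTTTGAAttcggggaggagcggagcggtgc
CCNB2: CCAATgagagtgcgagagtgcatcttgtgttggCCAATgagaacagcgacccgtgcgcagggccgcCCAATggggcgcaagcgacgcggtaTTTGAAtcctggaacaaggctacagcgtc
KIF23: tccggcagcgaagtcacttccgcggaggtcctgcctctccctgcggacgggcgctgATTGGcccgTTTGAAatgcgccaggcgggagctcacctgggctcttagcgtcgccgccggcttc
HMMR: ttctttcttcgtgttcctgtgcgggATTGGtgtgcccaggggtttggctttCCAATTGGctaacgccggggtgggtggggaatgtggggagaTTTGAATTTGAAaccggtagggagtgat
MKI67: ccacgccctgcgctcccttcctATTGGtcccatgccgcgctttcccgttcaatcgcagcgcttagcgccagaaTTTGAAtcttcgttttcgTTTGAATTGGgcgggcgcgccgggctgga
CCNB1: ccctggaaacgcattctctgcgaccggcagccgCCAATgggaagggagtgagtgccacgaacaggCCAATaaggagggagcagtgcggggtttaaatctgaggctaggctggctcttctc
KIF20A: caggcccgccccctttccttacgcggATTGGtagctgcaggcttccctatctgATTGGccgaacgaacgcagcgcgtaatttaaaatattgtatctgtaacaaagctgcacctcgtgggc
In PLK1, CCNB2 and MKI67 a CHR begins 29 bases before the start, and HMMR has 2 CHR copies side by side, beginning 28 and 22 bases before it. CCNB1 and KIF20A hold CCAAT boxes but none of the exact CHR letters in the stretch shown.

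Over windows from 250 bases before to 50 after the start, counting a gene as holding a motif if any of its annotated starts did, 9 of the 13 called G2 and M phase genes with a promoter entry held a CHR and 13 of 13 held a CCAAT box. Among the 10749 measured genes with an entry, 17.0% held a CHR and 41.4% a CCAAT box. Over all 35116 promoter windows the shares were 16.4% and 34.6%. The 7 genes of the list with an entry that did not pass the test held a CHR in 6 cases and a CCAAT box in 6. Over every gene called higher with DcpS siRNA the share with a CHR was 24.8%, and over every gene called lower 16.8%. In MKI67 the CHR nearest the start shares bases with a CCAAT box on the other strand. A match is a description of these letters and not of a bound site.

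Genes of DNA synthesis went the other way. Of 18 measured DNA replication genes 5 were lower and 0 higher with DcpS siRNA, and 16 had negative differences, with a median of -0.25, where 2.47% of all genes were called lower. The arrays of 10 of the 18 were separate in that direction, as were those of 10.2% of all genes. MCM3, a subunit of the replicative helicase, was at 9.55, 9.53 and 9.61 with DcpS, 10.14, 10.28 and 10.16 with GAPDH and 10.04, 10.09 and 10.04 with non-silencing siRNA (difference -0.63, SE 0.077, limma adjusted p = 0.000148). Its DcpS arrays lay below all others. CDC6, which loads that helicase onto DNA, was at 7.07, 7.30 and 7.36, 8.27, 7.72 and 8.06 and 7.43, 7.59 and 7.93, a difference of -0.77 (SE 0.15, limma adjusted p = 0.0055), with the non-silencing arrays between the groups and partly overlapping GAPDH siRNA. The helicase subunits MCM5 (-0.46) and MCM4 (-0.35) and the licensing factor CDT1 (-0.32) were also lower, with non-silencing means of 8.88, 9.88 and 9.96 between those of both siRNAs. MCM2 was the member farthest in the other direction, at 0.18 (95% interval 0.0049 to 0.35), and did not pass, and PCNA, the sliding clamp, was at -0.11 (-0.33 to 0.10), with non-silencing means of 9.24 and 9.89.

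Among 14 measured regulators of G1 and S phase, 3 were lower with DcpS siRNA, 0 were higher and 12 had negative differences (median -0.28), where 2.47% of all genes were called lower. The S phase cyclin CCNE2 was at 6.09, 6.20 and 6.51 with DcpS and 7.08, 6.72 and 6.90 with GAPDH siRNA, with a non-silencing mean of 6.69 (difference -0.63, limma adjusted p = 0.00726). The phosphatase CDC25A (-0.54) and the kinase CDK6 (-0.36) were the other two, with non-silencing means of 8.85 and 6.66 against DcpS means of 8.73 and 6.51. Of 3 called replication genes with a promoter entry, 3 held an E2F site spelled TTTCCCGC, TTTGGCGC or TTTCGCGC on either strand, against 4.42% of measured genes and 7 of 12 replication genes that were not called. Among the G1 and S phase regulators with an entry it was 1 of 2 called and 4 of 8 not called, and among all genes called lower 6.73%. The 5 calls of the replication list became 3 without DcpS replicate 1, GAPDH replicate 1 or GAPDH replicate 3, and the 3 calls of the G1 and S list became 1 without DcpS replicate 1 or GAPDH replicate 1. With only the 6 arrays in the limma fit 0 of the 14 were called, and 6 had an unadjusted p under 0.05. MCM4 missed the threshold without DcpS replicate 1 or 2, GAPDH replicate 1 or 3, or with only the 6 arrays (limma adjusted p 0.067 to 0.105). CDT1 missed the threshold without DcpS replicate 1, 2 or 3, GAPDH replicate 1, 2 or 3, non-silencing replicate 2 or 3, or with only the 6 arrays, the replicate block, median centring, quantile normalization or array weights (limma adjusted p 0.0543 to 0.169). CDC25A and CDK6 missed the threshold without DcpS replicate 1, GAPDH replicate 1, or with only the 6 arrays (limma adjusted p 0.0549 to 0.099). CCNE2 missed the threshold with only the 6 arrays (limma adjusted p = 0.0522).

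Glycolysis was examined because one of the siRNAs targets an enzyme of it. Of 9 measured glycolysis genes, GAPDH itself was higher and PGAM1 and LDHA were lower with DcpS siRNA, and the list's median was -0.10. Over all genes 3.51% were called higher and 2.47% lower. PGAM1, the phosphoglycerate mutase a few steps below GAPDH, was at 7.66, 8.15 and 8.05 with DcpS, 9.25, 9.11 and 8.94 with GAPDH and 8.45, 8.45 and 8.81 with non-silencing siRNA. The non-silencing arrays fell between both groups without touching either (difference -1.15, SE 0.14, limma adjusted p = 0.000148). Outside the list its relative PGAM4 was also called lower, and the probes may not separate it from PGAM1. LDHA, the lactate dehydrogenase subunit, was at 5.19, 5.68 and 5.73 with DcpS and 6.13, 6.15 and 6.20 with GAPDH siRNA, against a non-silencing mean of 6.24 (difference -0.63, limma adjusted p = 0.0116). For LDHA the GAPDH arrays lay within the range of the non-silencing arrays. The other measured enzymes did not pass, with PGK1 at -0.27 (95% interval -0.56 to 0.014), TPI1 at -0.10, GPI at -0.10, HK1 at -0.030, LDHB at 0.043 and HK2 at 0.32 (0.11 to 0.52). Their non-silencing means were 8.73, 7.24, 11.15, 8.06, 8.87 and 6.98.

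ARRDC4, an alpha-arrestin that lowers glucose uptake and is induced with glucose supply, had the largest difference in the direction of GAPDH siRNA. It was at 7.65, 8.22 and 8.42 with DcpS, 9.77, 9.44 and 9.73 with GAPDH and 8.71, 9.13 and 9.30 with non-silencing siRNA, 3 groups without overlap (difference -1.55, SE 0.17, limma adjusted p = 6.03e-05). The mean of ARRDC4 was 9.81 with LOC550643 and 8.71 with Dcp2 siRNA, so its high level was not particular to GAPDH siRNA. Its relative TXNIP was at 10.60 with DcpS and 10.84 with GAPDH siRNA, both above a non-silencing mean of 9.86, and its difference of -0.24 (95% interval -0.61 to 0.13) did not pass the test. The glucose-sensing factors MLX (0.13) and MLXIPL (0.39) did not pass either, with non-silencing means of 8.78 and 6.80. None of 6 pentose phosphate, 7 serine and one-carbon, 6 tricarboxylic acid cycle and 10 hypoxia response genes measured was called, with medians of 0.03, 0.03, -0.05 and 0.01 (by limma; unadjusted p under 0.05 for 1, 0, 2 and 2 of them). LDHA missed the threshold without DcpS replicate 1, or with only the 6 arrays (limma adjusted p 0.0506 to 0.0586).

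**Figure D4:**
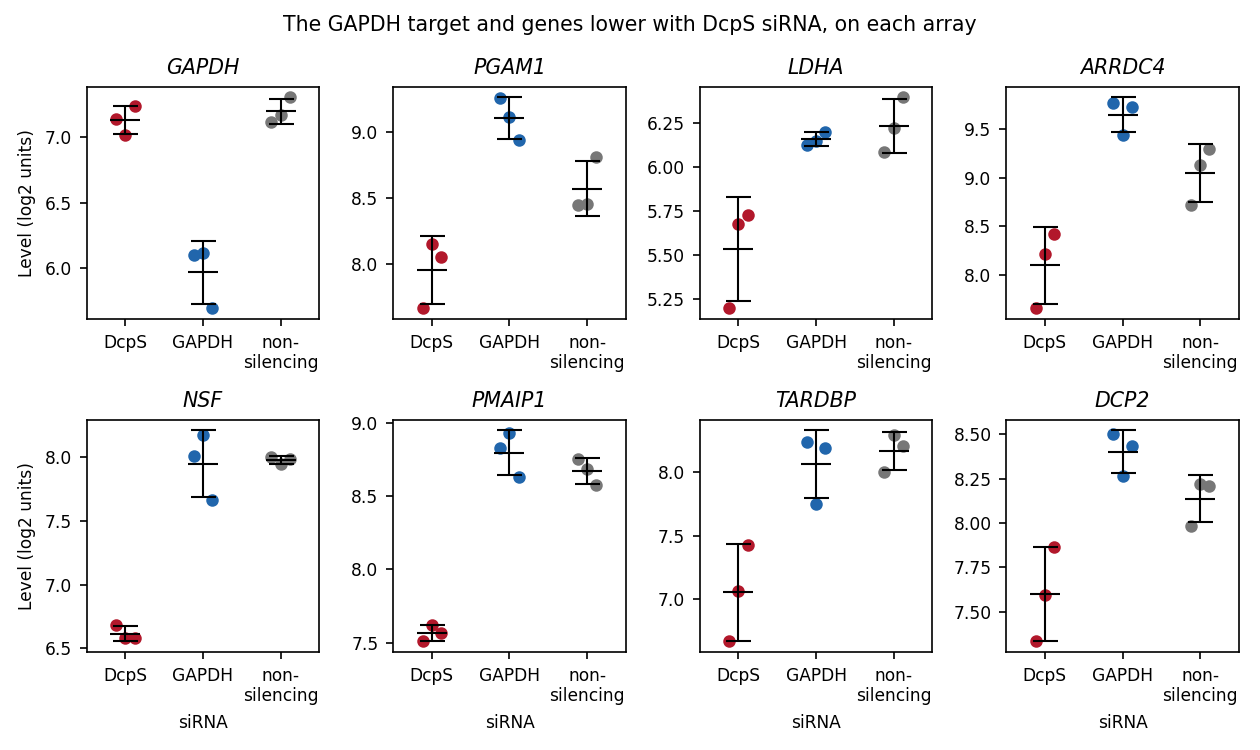
Levels in log2 units on each array of GAPDH and of 7 genes lower with DcpS than with GAPDH siRNA (3 arrays per group, points; black bars, mean and SD). GAPDH is low in the GAPDH siRNA arrays only, and for NSF, PMAIP1 and TARDBP the GAPDH and non-silencing points share a range while the DcpS points lie below it.

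Genes lower with DcpS siRNA than with both GAPDH and non-silencing siRNA included NSF, the ATPase that takes SNARE complexes apart after membrane fusion. NSF was at 6.68, 6.58 and 6.58 with DcpS, 8.01, 8.18 and 7.66 with GAPDH and 8.01, 7.94 and 7.98 with non-silencing siRNA (difference -1.33, SE 0.13, limma adjusted p = 2.24e-05). The GAPDH mean was -0.028 from non-silencing and the DcpS mean -1.36. With Dcp2 siRNA NSF was at 7.39, 7.48 and 7.75, also below the non-silencing arrays, so a lower level was not particular to DcpS siRNA. NSFP1, named as a pseudogene of NSF, was also called lower, and the probes may not separate it from NSF. Of 21 measured SNARE and vesicle fusion genes, 4 were lower and 0 higher, while 11 had positive differences and the median was 0.00899, where 2.47% of all genes were called lower and 3.51% higher. The list does not hold every SNARE gene measured: outside it STX2 was called higher (0.78, non-silencing mean 7.78) and VAMP1 (-0.71, 7.18) and STX10 (-0.33, 8.38) lower, genes named after their values were seen. The other three of the list were the SNAREs SEC22B (-0.76), VAMP2 (-0.73) and VAMP4 (-0.59), which act between the endoplasmic reticulum and Golgi, at secretory vesicles and at the trans-Golgi, with non-silencing means of 8.65, 7.14 and 6.98 against DcpS means of 8.16, 6.55 and 6.24. VAMP4 missed the threshold without DcpS replicate 1 or 2, GAPDH replicate 1, 2 or 3, non-silencing replicate 2, or with only the 6 arrays or median centring (limma adjusted p 0.0507 to 0.153). STX10 missed the threshold without DcpS replicate 1 or 3, GAPDH replicate 2 or 3, or with only the 6 arrays (limma adjusted p 0.0565 to 0.14).

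PMAIP1, which encodes the proapoptotic protein NOXA, was at 7.51, 7.62 and 7.57 with DcpS, 8.83, 8.93 and 8.63 with GAPDH and 8.76, 8.68 and 8.57 with non-silencing siRNA (difference -1.23, SE 0.099, limma adjusted p = 5.36e-06). The DcpS arrays lay below both other groups, which overlapped. Of 13 measured BCL2 family genes, PMAIP1 and the antiapoptotic BCL2 (-0.61, non-silencing mean 6.03, DcpS mean 5.37) were lower and 0 were higher, and the median was -0.17. Over all genes 2.47% were called lower and 3.51% higher. PMAIP1 was the only one of 11 measured p53 targets called, and the median of that list was 0.03.

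TARDBP, which encodes the RNA-binding protein TDP-43, varied among the DcpS arrays, at 6.67, 7.07 and 7.43, but all lay below the GAPDH arrays, at 8.24, 7.75 and 8.19, and the non-silencing arrays, at 8.00, 8.29 and 8.21 (difference -1.01, SE 0.17, limma adjusted p = 0.00143). Among 29 measured splicing regulators it was the only one lower, PTBP1 was the only one higher (0.33, non-silencing mean 11.96), and the median was -0.06. Over all genes 5.98% were called in either direction, and 2.47% of all genes were called lower. Of 21 snRNP proteins, SNRPE (-0.65) and PRPF6 (-0.31) were lower, with non-silencing means of 5.38 and 8.04 nearer the DcpS means of 5.30 and 7.99. Averaging the 2 probe sets of SNRPE gave -0.39. PTBP1 missed the threshold without DcpS replicate 2, GAPDH replicate 2, or with only the 6 arrays (limma adjusted p 0.0524 to 0.117). SNRPE missed the threshold without DcpS replicate 1 or 2, GAPDH replicate 1 or 3, or with only the 6 arrays (limma adjusted p 0.0802 to 0.15). PRPF6 missed the threshold without DcpS replicate 1, 2 or 3, GAPDH replicate 1, 2 or 3, non-silencing replicate 2 or 3, or with only the 6 arrays, the replicate block, median centring or quantile normalization (limma adjusted p 0.0508 to 0.151).

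For SHISA2, HAND1 and ZYG11B the non-silencing mean also lay closer to GAPDH than to DcpS siRNA. SHISA2, an inhibitor of Wnt and FGF receptor maturation, was at 6.47 with DcpS and 7.68 with GAPDH siRNA (difference -1.21, SE 0.11, limma adjusted p = 1.01e-05; non-silencing mean 7.94). HAND1, a developmental transcription factor, was at 7.37 and 8.55 (-1.18, non-silencing 8.34), and ZYG11B, a substrate receptor of a ubiquitin ligase, at 7.73 and 8.82 (-1.09, non-silencing 8.74). CDS1, an enzyme of phosphatidylinositol synthesis, differed by -1.22 and GDAP1, a protein of the mitochondrial outer membrane, by -1.04, with non-silencing means of 7.42 and 5.78 between the groups. The metallothionein MT1F was at 6.66, 5.74 and 6.40 with DcpS and 7.57, 7.24 and 6.96 with GAPDH siRNA (difference -0.99, non-silencing mean 6.90). MT1F missed the threshold without DcpS replicate 2, GAPDH replicate 1, or with only the 6 arrays (limma adjusted p 0.0622 to 0.0879).

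CD68 and DSTYK were instead higher in the GAPDH arrays than in the DcpS and non-silencing arrays. CD68, a lysosomal glycoprotein best known from macrophages, was at 6.04, 6.25 and 6.10 with DcpS, 7.49, 7.50 and 7.32 with GAPDH and 6.42, 6.41 and 6.17 with non-silencing siRNA (difference -1.31, SE 0.11, limma adjusted p = 5.36e-06). Every GAPDH array lay above all others, and their mean was 1.10 above non-silencing. It is counted among the blood cell markers, 4 of 10 of which were measured, with a summed level of 6.99 to 7.20 in the DcpS, 7.93 to 7.94 in the GAPDH and 7.11 to 7.14 in the non-silencing arrays. Of the rest, SPI1 differed by -0.22, CD14 by 0.038 and LYZ by 0.13, none passing, with non-silencing means of 5.28, 3.52 and 2.94 and with CD14 and LYZ at 3.57 and 3.02 in the GAPDH arrays, below every array median. The part of other cells in the CD68 difference was not tested. DSTYK, a dual-specificity kinase, differed by -1.13 (limma adjusted p = 0.00144) with a GAPDH mean of 6.75 above the non-silencing mean of 5.98. Its level was not particular to GAPDH siRNA, with means of 6.65 for LOC550643 and 6.49 for Dcp2 siRNA.

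Next came the decay machinery to which DcpS belongs. Of 10 measured decapping and P-body genes, 1 was lower and 1 higher and the median was -0.10, where 5.98% of all genes were called in either direction. DCP2, the catalytic decapping enzyme, was at 7.34, 7.60 and 7.87 with DcpS, 8.50, 8.27 and 8.43 with GAPDH and 7.98, 8.22 and 8.21 with non-silencing siRNA (difference -0.80, SE 0.13, limma adjusted p = 0.001), so that the non-silencing arrays lay between the groups. DCP1B, a cofactor of DCP2, went the other way, at 6.21, 6.36 and 6.43 with DcpS and 5.73, 5.52 and 5.48 with GAPDH siRNA, with a non-silencing mean of 5.89 (difference 0.75, SE 0.093, limma adjusted p = 0.000165). DDX6, the P-body helicase, was at -0.28 (95% interval -0.49 to -0.071) and XRN1, the exonuclease that acts on decapped mRNA, at -0.059 (-0.27 to 0.15), neither past the test, with non-silencing means of 10.02 and 7.63.

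Of 16 measured genes of cap binding and cap metabolism 0 were called by limma (4 at an unadjusted p under 0.05), with differences between -0.34 for RNGTT, the capping enzyme, and 0.34 for HINT2, whose non-silencing means were 7.61 and 6.18, and a median of -0.03. The cap-binding translation factor EIF4E was at 0.045 (95% interval -0.25 to 0.34) and NUDT16, another cap hydrolase, at -0.045 (-0.33 to 0.24), with non-silencing means of 6.41 and 6.38. In the RNA exosome, which makes the capped remnants that DcpS acts on, EXOSC6 was lower (-0.58, DcpS mean 7.53, non-silencing mean 8.07) and the other 15 of 16 measured genes did not pass. Over all genes 5.98% were called in either direction. CASC3, a core protein of the exon junction complex, was the only one of 5 measured nonsense-mediated decay factors called (-0.34, non-silencing mean 10.15). None of 5 deadenylation genes and 13 substrates of nonsense-mediated decay was called (unadjusted p under 0.05 for 1 and 1 in limma), with medians of 0.09 and -0.05. CASC3 missed the threshold with only the 6 arrays (limma adjusted p = 0.11).

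**Figure D5:**
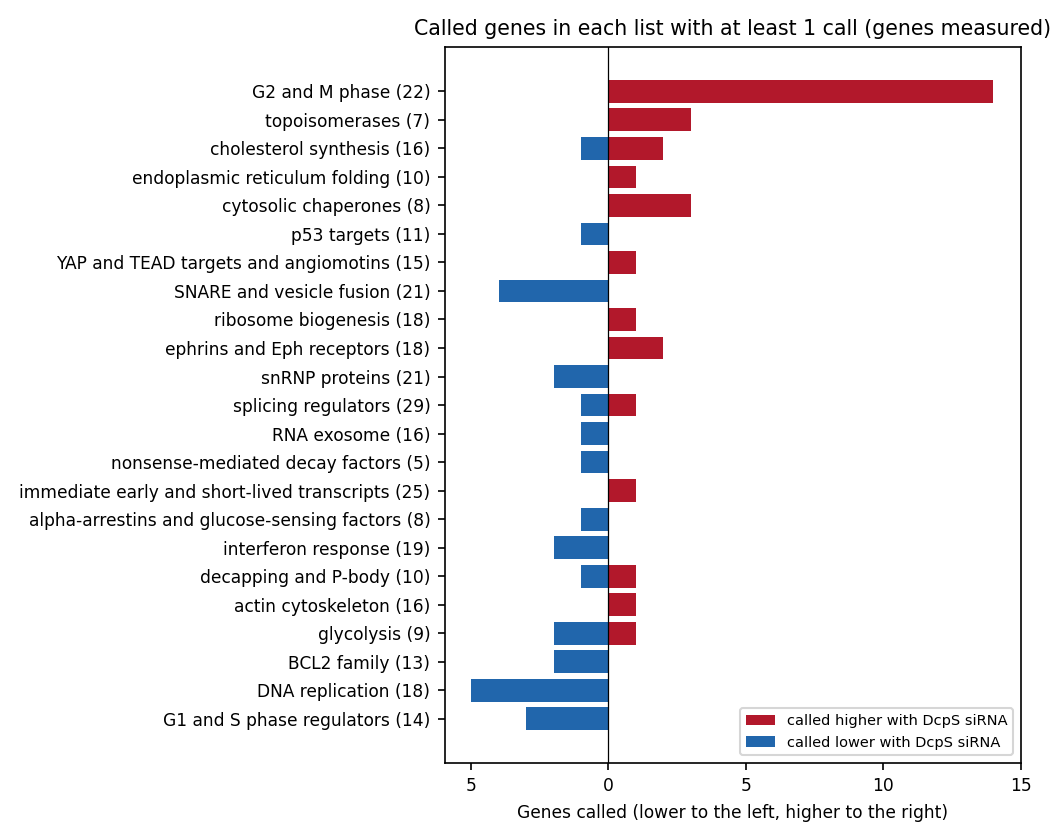
Bars count the genes called higher (right) or lower (left) with DcpS than with GAPDH siRNA in each list with at least 1 call, ordered by the median difference of the list, with the number of measured genes in brackets. The G2 and M phase bar reaches 14 of 22 on the right, and the DNA replication bar 5 of 18 on the left.

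Among stress and membrane lists, the cytosolic chaperones had 3 calls among 8 measured genes, all higher, where 3.51% of all genes were called higher. The inducible heat shock genes HSPA1A and HSPA1B were at 11.39, 11.68 and 11.75 and 11.71, 11.99 and 12.07 with DcpS siRNA and 10.73, 10.28 and 11.05 and 11.03, 10.55 and 11.37 with GAPDH siRNA (differences 0.92 and 0.94, limma adjusted p = 0.00738 and 0.00849, non-silencing means 10.93 and 11.22). These genes are near-identical copies, so their probe sets cannot be taken as separate measurements. HSPH1, their nucleotide exchange factor, was at 0.36 (non-silencing mean 8.36). With Dcp2 siRNA the means of HSPA1A, HSPA1B and HSPH1 were 11.60, 11.93 and 8.58, against 11.61, 11.92 and 8.54 with DcpS siRNA. Against non-silencing none of these genes passed with DcpS siRNA (limma adjusted p = 0.0621, 0.0645 and 0.360). In cholesterol synthesis 13 of 16 genes had positive differences (median 0.17). DHCR7 (0.48) and IDI1 (0.47) were higher, and INSIG1, which holds back the activator of the pathway, was lower (-0.73). Their non-silencing means were 9.04, 8.02 and 9.20. Over all genes 3.51% were called higher and 2.47% lower. HSPH1 missed the threshold without DcpS replicate 1 or 2, GAPDH replicate 2 or 3, or with only the 6 arrays or array weights (limma adjusted p 0.0515 to 0.14). IDI1 missed the threshold without DcpS replicate 2 or 3, GAPDH replicate 2 or 3, or with only the 6 arrays (limma adjusted p 0.076 to 0.117). INSIG1 missed the threshold without DcpS replicate 1 or 2, GAPDH replicate 1, 2 or 3 (limma adjusted p 0.0583 to 0.144).

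The antiviral membrane proteins IFITM2 and IFITM1 were the 2 of 19 interferon response genes called, both lower, where 2.47% of all genes were called lower. IFITM2 was at 9.08, 8.52 and 9.10 with DcpS, 10.08, 9.68 and 10.00 with GAPDH and 10.04, 9.73 and 9.88 with non-silencing siRNA (difference -1.02, SE 0.16, limma adjusted p = 0.00109), and IFITM1 differed by -0.46 with a non-silencing mean of 9.46. The 2 are close relatives in sequence, and the probes may not separate them. Besides EFNA3, the receptor gene EPHA3 was higher (0.91, DcpS mean 7.45, non-silencing mean 6.75) among 18 ephrin and Eph receptor genes, whose median was -0.02. All 3 called of 7 topoisomerase genes were higher, TOP2B and TOP2A as above and TOP1 (0.50, non-silencing mean 9.35). Over all genes 3.51% were called higher.

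Single calls were left in several other lists, and 5.98% of all genes were called in either direction. MYC was higher (0.62), with DcpS near the non-silencing mean of 6.39 (-0.062) and GAPDH below it (-0.68), and was the only one of 25 immediate early and short-lived transcripts called. NOLC1, a nucleolar chaperone (0.66), YAP1, the Hippo pathway coactivator (0.63), the adhesion protein VCL (0.48) and SEL1L, of the degradation complex of the endoplasmic reticulum (0.50), were the only calls among 18 ribosome biogenesis, 15 YAP and angiomotin, 16 actin and 10 folding genes, with non-silencing means of 7.94, 6.82, 9.41 and 7.55. Among the 9 measured markers of the line 3 were called. DBN1, an actin-binding protein, was higher (0.75) and LIN28B, an RNA-binding protein of embryonic cells (-0.56), and VIM (-0.59) were lower, with non-silencing means of 6.48, 8.56 and 8.06. Further probe sets of VIM, with means of 7.99 and 7.81 over all arrays, had smaller differences of -0.24 and -0.43. None of 9 measured amino acid response genes and 30 KRAB zinc finger genes was called by limma (unadjusted p under 0.05 for 0 and 7). SEL1L missed the threshold without DcpS replicate 2, GAPDH replicate 1 or 3, or with only the 6 arrays (limma adjusted p 0.0512 to 0.0754). VCL missed the threshold with only the 6 arrays (limma adjusted p = 0.0695). VIM missed the threshold without DcpS replicate 1, 2 or 3, GAPDH replicate 1 or 2, or with only the 6 arrays (limma adjusted p 0.0591 to 0.124).

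A small set shows what a second targeting siRNA as reference changes. HABP4, an RNA-binding protein, was called higher than non-silencing with both siRNAs, and was at 7.31, 7.34 and 7.31 with DcpS, 7.85, 7.99 and 7.67 with GAPDH and 6.52, 6.64 and 6.40 with non-silencing siRNA. It was therefore lower with DcpS than with GAPDH siRNA (-0.51, SE 0.092, limma adjusted p = 0.00289) while higher than non-silencing by 0.80. EMC6, of the endoplasmic reticulum membrane complex, had the same order (-0.32 between the siRNAs, with 0.48 and 0.80 against the non-silencing mean of 7.12). MTM1, a phosphoinositide phosphatase, and NOLC1 were also above non-silencing with both, by 1.15 and 1.02 with DcpS siRNA and by 0.60 and 0.36 with GAPDH siRNA (MTM1 non-silencing mean 6.02). PLLP, a membrane protein of myelin, was below non-silencing with both, at -0.57 and -1.02 from a mean of 7.10. The means with LOC550643 and Dcp2 siRNA also lay above non-silencing for HABP4 (7.77 and 7.76) and EMC6 (7.69 and 7.75). They did so for MTM1 (6.53 and 6.43) and NOLC1 (8.84 and 8.93), and for PLLP they lay below it (5.97 and 6.61). These distances from non-silencing were therefore not particular to DcpS and GAPDH siRNA. In all, 13 called genes were also called with both siRNAs against non-silencing, and the other 8 lay above it with DcpS and below it with GAPDH siRNA. EMC6 missed the threshold without DcpS replicate 1 or 3, GAPDH replicate 1, 2 or 3, or with only the 6 arrays (limma adjusted p 0.053 to 0.157). PLLP missed the threshold without DcpS replicate 1, 2 or 3, GAPDH replicate 2 or 3, non-silencing replicate 2, or with only the 6 arrays, the replicate block, median centring, quantile normalization or array weights (limma adjusted p 0.0504 to 0.173). MTM1 missed the threshold with only the 6 arrays (limma adjusted p = 0.0622).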

How the data were processed

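Log2 probe set values were used as deposited. Per the submitters' processing notes they came from RMA with the oligo package; base 2 was inferred from the range, and versions, genome build and probe set definition are not given in the sources used here. Of 53617 probe sets, 16098 had 1 gene symbol in the platform annotation (updated through RefSeq gene IDs), 0 had several and 37519 were unnamed here. Where a gene had several (779 genes), the probe set with the highest mean over 15 arrays was kept, leaving 14884 genes. Detection calls were not used. Precision is limited by having 3 arrays per group.

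The fit used all 15 arrays (limma 3.58.1, R 4.3.3), with 1 mean per group (5 groups, 10 residual degrees of freedom). The contrast DcpS minus GAPDH was tested two-sided, and p-values were adjusted by Benjamini-Hochberg over all genes; genes with an adjusted p under 0.05 are called. Members and lists (32 pathway and 5 marker lists) were chosen with earlier results of these data known, and lists are described by counts and medians without a set test. Genes named were the targets, the 14 largest called differences in each direction with separate arrays (no small RNAs or olfactory receptors), up to 4 called members of each list, the 4 largest called in all 3 contrasts, and the 3 largest with non-silencing above or below both groups; other names, among them the remaining called genes of the cell cycle lists and of the genes called in all 3 contrasts, were added after their values were seen. Summed marker levels are log2 of sums of linear values. Alternatives were arrays left out, the 6 arrays alone, a replicate block, other scaling, a filter on dim genes, the mean of probe sets, other variance priors and array weights. A further alternative had the within-group deviation on the axis as a covariate.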

Additional observations from a re-analysis of the deposited data

Results flagged for a closer look

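For 8 genes the difference from non-silencing passed the test in opposite directions, above it with DcpS siRNA and below it with GAPDH siRNA, and the difference between the siRNAs passed too. In order of size, the DcpS minus GAPDH difference was 1.59 log2 units for KIF20A, 1.39 for SLBP, 1.29 for LRIF1, 1.11 for KIF20B, 1.08 for EVI5, 0.96 for EFR3A, 0.91 for PLPP3 and 0.83 for TOX3. KIF20B is a mitotic kinesin, EVI5 a protein of the midbody, EFR3A an anchor of a lipid kinase at the plasma membrane and PLPP3 a lipid phosphatase. The non-silencing means of EVI5, EFR3A and PLPP3 were 7.33, 7.17 and 5.09. KIF20B was at 8.59, 8.43 and 8.56 with DcpS, 7.49, 7.33 and 7.44 with GAPDH and 8.00, 8.10 and 7.88 with non-silencing siRNA. TOX3, a chromatin protein, had the smallest of these differences, with means of 6.84, 6.01 and 6.49. Both contrasts of a gene with non-silencing use the same 3 reference arrays.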

How the results depend on the processing

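The number of called genes, 890, became 394 in a fit of just the 6 compared arrays. A covariate for the within-group deviation on the axis made it 1461. This deviation is computed from the residuals of the same genes and has the same mean in every group. By its construction it leaves the differences unchanged and lowers the spread. Leaving out 1 DcpS, GAPDH or non-silencing array in turn gave 573 to 934 genes, and the lowest, without GAPDH replicate 1, was under the main count by more than 1.5 times. With the replicate block it was 936. The replicate numbers carry no label of a common culture or day. Deviations of same-numbered DcpS and GAPDH arrays correlated at 0.02, -0.13 and 0.09, and 1 of 3 DcpS arrays correlated best with its own number. On the shared axis, replicate 3 deviated from its group mean by 7.34 with DcpS, 12.1 with GAPDH and 9.73 with non-silencing siRNA. It deviated by 10.5 with LOC550643 and -3.52 with Dcp2 siRNA. Replicate 1 deviated by -14.0, -0.78, -14.6, -6.54 and 3.15 in the same order. Whether a replicate number marks a shared day was not tested. The difference of GAPDH lay between 1.03 and 1.24 in all settings and stayed called. Of 108 genes named and called, 77 stayed called in every setting run, 31 missed the threshold in at least 1, and none changed direction. The G2 and M phase count lay between 12 and 18 over all settings, the 18 being with the axis covariate. Median centring moved the share of higher calls from 58.8% to 56.6% and the median of all genes from -0.00157 to -0.00744. The DNA replication count fell from 5 to 3 with only the 6 arrays. Nothing here tests why counts differ between settings; the cause was not tested. Array values carry no read depth, and without background values dim genes have no detection limit here.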

Other observations

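Kinesin and HOX genes were grouped by symbol after their values were seen, so their counts are a description. Among 42 kinesin genes, 9 rose and 2 fell, where 3.51% of all genes were called higher and 2.47% lower. Besides KIF20A, KIF20B and KIF23, the mitotic kinesins KIF18A (0.68), KIF14 (0.65), KIF2C (0.56) and KIF4A (0.45), which has a near-identical copy in KIF4B (0.33) and is uncertain for that reason, were higher, as were KIF21A (0.59) and the neuronal transport kinesin KIF5C (0.61). The transport kinesins KIF5A (-0.79) and KIF3A (-0.44) were lower. Non-silencing means were 7.50 for KIF18A, 7.55 for KIF14, 9.23 for KIF2C, 7.91 for KIF4A, 7.04 for KIF4B, 5.81 for KIF21A, 7.37 for KIF5C, 7.06 for KIF5A and 7.35 for KIF3A. KIF3A missed the threshold with only the 6 arrays (limma adjusted p = 0.0605).

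Of 27 HOX genes, which set position along the body axis, 7 fell and 0 rose, and 22 had negative differences (median -0.18), where 2.47% of all genes were called lower and 3.51% higher. HOXB9 was at 9.77, 9.70 and 9.88 with DcpS, 10.47, 10.45 and 10.46 with GAPDH and 10.49, 10.28 and 10.25 with non-silencing siRNA (difference -0.68, SE 0.087, limma adjusted p = 0.000216), so that its DcpS arrays lay below all others. The rest were HOXD11 (-0.79), HOXB5 (-0.75), HOXD13 (-0.69), HOXB6 (-0.64), HOXD10 (-0.57) and HOXC10 (-0.40), with non-silencing means of 8.07, 7.16, 9.37, 7.85, 8.50 and 6.76 against DcpS means of 7.46, 6.40, 8.89, 7.16, 7.60 and 6.64. Neighbouring HOX genes share their clusters and are not independent. HOXB5 missed the threshold without DcpS replicate 1 or 2, GAPDH replicate 1 or 3, or with only the 6 arrays (limma adjusted p 0.0846 to 0.119). HOXB6 and HOXD10 missed the threshold without DcpS replicate 1 or 2, GAPDH replicate 3, or with only the 6 arrays (limma adjusted p 0.0552 to 0.0713). HOXC10 missed the threshold without DcpS replicate 1 or 2, GAPDH replicate 1 or 2, or with only the 6 arrays (limma adjusted p 0.0572 to 0.104).

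Of 37519 probe sets unnamed here, tested as a separate set with limma, 131 were higher and 116 lower with DcpS siRNA, or 0.658%.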
